A study of Homo sapiens with 12 samples.

Results

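The genes of the proteasome were followed in differentiated Caco-2 cells. This established line from a human colon carcinoma comes to resemble absorptive enterocytes after confluence. Members were all genes named PSMA, PSMB, PSMC, PSMD, PSME, PSMF or PSMG with a number, pseudogenes left out. They were measured through the probe set, among those annotated to a single gene, with the highest mean over all arrays. This gave 42 members among 19775 genes measured. RefSeq holds 48 such genes. PSMA6 and PSME2 were matched only by probe sets that carry several gene names and were given no value, and PSMB11, PSMC5, PSMD7 and PSMD13 were not analysed here. All cells were of passage 22, were used 21 days after confluence and were kept for 24 h in DMEM with insulin, transferrin and selenium. The groups, of 3 arrays each, were 25 µg/mL AgPURE, 2.5 µg/mL AgPURE, 0.5 µg/mL silver ions given as AgNO3, and medium alone. AgPURE is a preparation of silver nanoparticles with a surfactant coat. No group received the surfactant without silver. Separate cultures behind the 3 arrays are not stated in the labels, and the p-values thus refer to spread among arrays that may be technical.

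The proteasome degrades proteins tagged with ubiquitin. Its barrel-shaped core particle is built from rings of alpha subunits, encoded by PSMA genes, and rings of beta subunits, encoded by PSMB genes, some of which carry the protease sites. A cap of PSMC ATPases and PSMD subunits binds the tagged protein, removes the ubiquitin chain and unfolds and threads the protein into the core. Interferon-inducible beta subunits can take the place of the constitutive catalytic ones to form the immunoproteasome, which favours peptides for antigen presentation. When proteasome activity falls short, the transcription factor NRF1, encoded by NFE2L1, is known to raise the transcription of proteasome genes in mammalian cells.

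At 25 µg/mL AgPURE, proteasome genes changed in both directions: calls in the cap and core were all higher and those in the immunoproteasome all lower. Of 42 members, 17 rose and 6 fell against medium by limma at an adjusted p under 0.05, which is 40.5% and 14.3% of members, beside 14.1% of all genes higher and 19.3% lower (33.4% either way). Of 14 cap genes 10 rose and 0 fell, of 14 core genes 3 rose and 0 fell, and of 4 immunoproteasome genes 0 rose and 4 fell. The median log2 fold change was 0.35 for the cap, 0.08 for the core and -0.99 for the immunoproteasome, beside -0.011 for all genes. The contrast of cap and core depended on the probe set chosen: with the mean of all probe sets of a gene 7 cap and 5 core genes rose, and the medians were 0.23 and 0.16. The 4 immunoproteasome genes had 1 probe set each, so this setting could not change their falls or their median of -0.99. The rises also depended on the authors' normalization: with arrays scaled on hybridization control probe sets 1 member was higher and 18 lower (2.38% and 42.9%, beside 2.57% and 64.9% of all genes). With poly-A control probe sets 0 were higher and 20 lower (0.0% and 47.6%, beside 0.905% and 71.2% of all genes). Both scalings lower every fold change at 25 µg/mL by 1 amount, so a fall can only deepen under them. The poly-A means differed among the 25 µg/mL arrays (6.21, 5.56 and 6.31). Poly-A scaling therefore also adds spread within this group, which can cost calls. Where "rose" is written below for a member, it holds for the deposited values, and PSMD12 alone of the 17 kept the call under hybridization scaling.

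**Figure D1:**
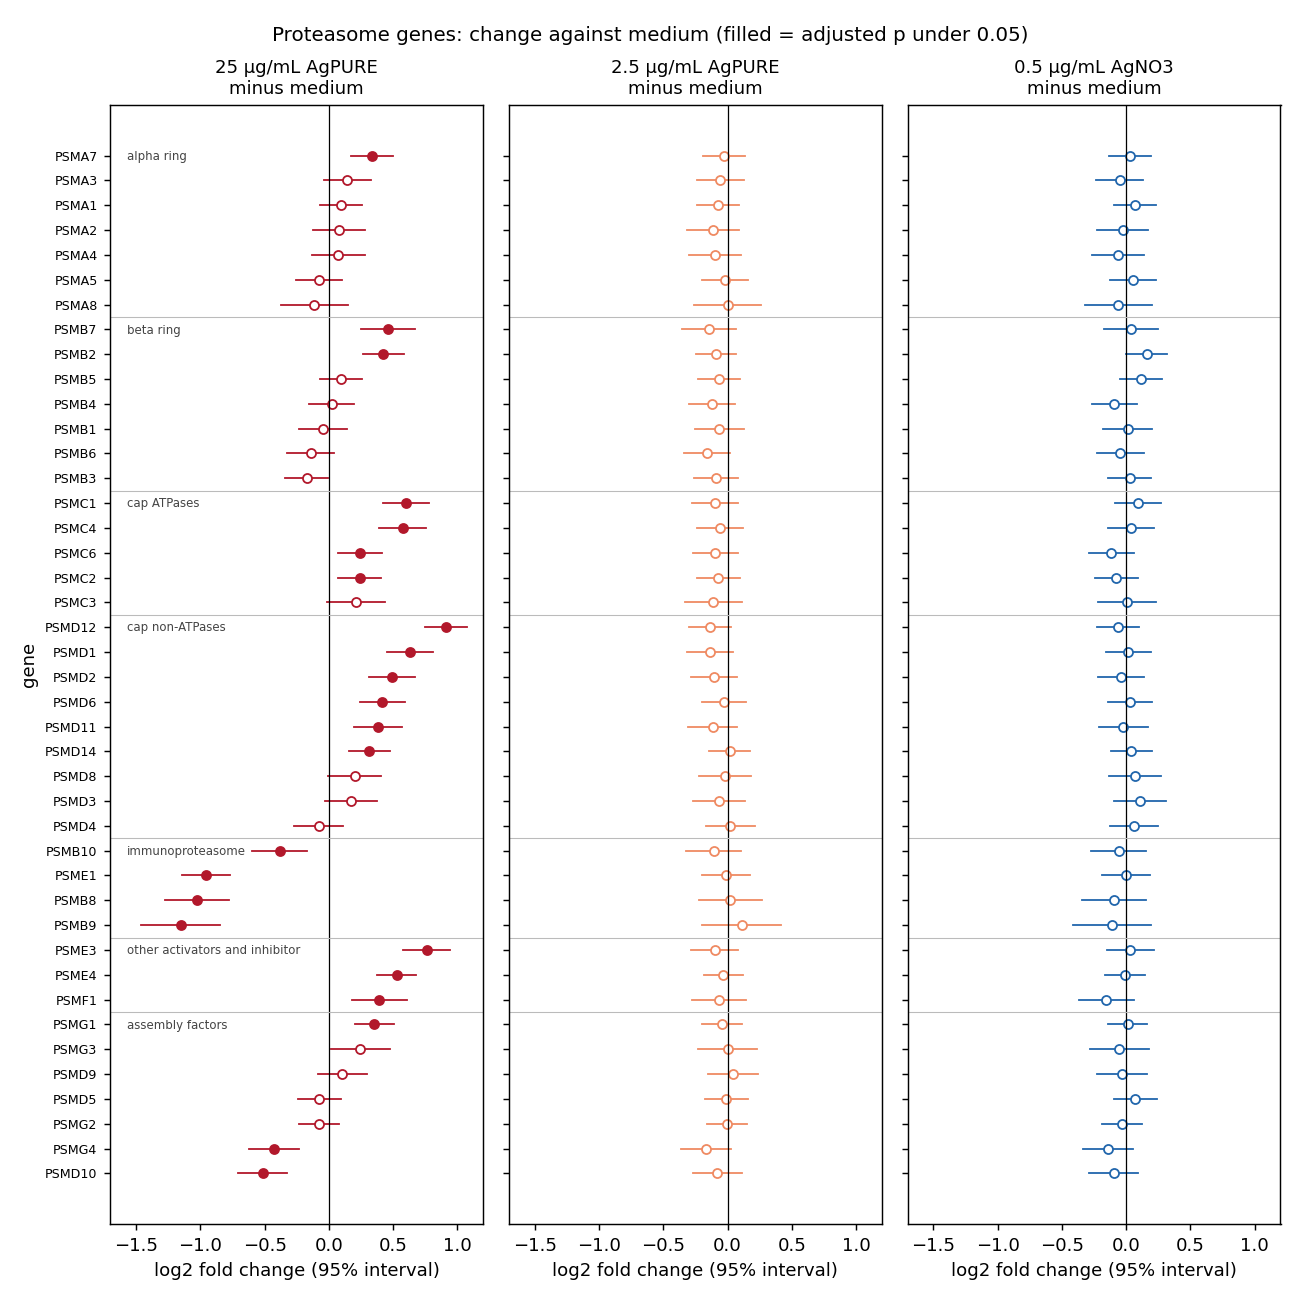
Log2 fold change with its 95% interval (x axis) for each of the 42 proteasome genes (y axis, grouped by role) for 25 µg/mL AgPURE, 2.5 µg/mL AgPURE and 0.5 µg/mL AgNO3, each against medium. Filled points passed an adjusted p under 0.05: 17 rose and 6 fell at 25 µg/mL, and 0 passed in either of the other panels.

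Promoter windows were available for 36 of the 42 members, from 250 bases before to 50 bases after the annotated start (RefSeq, GRCh38.p14), while those of PSMA7, PSMB1, PSMB6, PSMB7, PSMD4 and PSMG3 were not. They were searched on both strands for the core of the antioxidant response element, TGACNNNGC, which NRF1 and NRF2 can bind, for the interferon-stimulated element, GAAA and GAAA with 2 bases between them, and for the heat shock element GAANNTTC. The antioxidant element was in 12 of 36 member promoters, beside 14.3% of 15842 protein-coding promoters, with 5 of 15 promoters of members that rose, 2 of 6 of members that fell and 5 of 15 of members that did not pass. The interferon element was in 5 of 36, beside 3.18% of all, and these were PSME1, PSMB10 and PSMG4, which fell, and PSMA4 and PSMB4, which did not pass. The heat shock element in the form GAANNTTC was in 0 of 36, beside 5.56% of all, and other forms of it were not searched. A match describes the letters of the window and does not show binding.

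Windows are printed for PSMD12, PSMD1 and PSMC4, which rose and hold the antioxidant element, and for PSMB9, PSMB10 and PSME1, which fell. Every printed window holds a match, and so they do not stand for all members. PSMB8 and PSMD10 also fell, and their windows held none of the motifs searched. Of members that rose, only 5 of 15 promoters held the antioxidant element. They lie at chr17:67366528-67366827 (minus strand), chr2:231056617-231056916 (plus strand), chr19:39970915-39971214 (plus strand), chr6:32853942-32854241 (plus strand), chr16:67936801-67937100 (minus strand) and chr14:24135944-24136243 (plus strand). Capitals mark the matches: the antioxidant element in PSMD12, PSMD1, PSMC4 and PSMB9, the interferon element in PSMB10, and in PSME1 the antioxidant element followed by the interferon element. In PSMC4, PSMB9 and the interferon element of PSME1 the match is on the opposite strand.
PSMD12: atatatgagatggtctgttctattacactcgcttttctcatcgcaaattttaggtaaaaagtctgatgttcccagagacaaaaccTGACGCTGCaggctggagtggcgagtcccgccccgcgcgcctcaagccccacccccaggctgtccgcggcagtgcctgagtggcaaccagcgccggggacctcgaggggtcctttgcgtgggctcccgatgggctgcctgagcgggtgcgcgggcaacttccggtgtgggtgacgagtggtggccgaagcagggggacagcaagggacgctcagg
PSMD1: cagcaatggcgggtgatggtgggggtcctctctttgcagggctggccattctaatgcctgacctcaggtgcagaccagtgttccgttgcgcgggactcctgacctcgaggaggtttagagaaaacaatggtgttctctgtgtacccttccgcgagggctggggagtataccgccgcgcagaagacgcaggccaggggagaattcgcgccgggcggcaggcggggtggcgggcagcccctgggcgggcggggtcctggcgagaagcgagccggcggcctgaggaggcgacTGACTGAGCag
PSMC4: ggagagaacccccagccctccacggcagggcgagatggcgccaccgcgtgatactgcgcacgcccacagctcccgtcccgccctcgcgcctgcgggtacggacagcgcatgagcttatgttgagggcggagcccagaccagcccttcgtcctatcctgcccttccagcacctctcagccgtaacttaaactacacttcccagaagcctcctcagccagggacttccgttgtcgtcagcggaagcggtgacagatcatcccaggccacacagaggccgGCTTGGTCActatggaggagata
PSMB9: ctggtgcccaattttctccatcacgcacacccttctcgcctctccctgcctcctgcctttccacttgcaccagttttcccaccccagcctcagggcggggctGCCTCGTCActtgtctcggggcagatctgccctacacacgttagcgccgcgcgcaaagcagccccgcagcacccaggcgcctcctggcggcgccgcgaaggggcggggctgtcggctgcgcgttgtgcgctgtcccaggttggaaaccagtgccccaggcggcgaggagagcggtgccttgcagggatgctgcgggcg
PSMB10: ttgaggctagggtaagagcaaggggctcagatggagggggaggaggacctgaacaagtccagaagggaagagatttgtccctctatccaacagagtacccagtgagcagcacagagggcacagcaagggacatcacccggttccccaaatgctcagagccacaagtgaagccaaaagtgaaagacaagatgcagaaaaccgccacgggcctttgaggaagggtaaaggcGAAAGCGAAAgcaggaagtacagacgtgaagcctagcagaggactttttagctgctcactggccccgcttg
PSME1: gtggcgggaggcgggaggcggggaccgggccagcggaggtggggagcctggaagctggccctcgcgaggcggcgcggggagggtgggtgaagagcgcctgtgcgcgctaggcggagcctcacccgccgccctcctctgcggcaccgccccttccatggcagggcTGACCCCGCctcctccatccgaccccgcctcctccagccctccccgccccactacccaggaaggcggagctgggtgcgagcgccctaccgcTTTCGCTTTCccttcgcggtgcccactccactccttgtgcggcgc
The antioxidant core thus occurred both in genes that rose and in genes that fell.

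The cap held the member with the largest rise. PSMD12, a scaffold subunit of the cap's lid, had 11.30, 11.36 and 11.33 (log2) at 25 µg/mL, 10.33, 10.30 and 10.22 with 2.5 µg/mL AgPURE, 10.30, 10.36 and 10.39 with AgNO3 and 10.47, 10.44 and 10.34 in medium. The 25 µg/mL arrays lay above every other array, and the other groups lay close together. The log2 fold change against medium was 0.91 ± 0.08 (SE, 1.88-fold, limma adjusted p = 5.9e-07), and a second probe set gave 0.72. PSMD1, the large scaffold subunit of the cap's base, had 11.31, 11.28 and 11.27 at 25 µg/mL, 10.58, 10.61 and 10.37 with 2.5 µg/mL AgPURE, 10.70, 10.65 and 10.67 with AgNO3 and 10.66, 10.72 and 10.59 in medium. All arrays at 25 µg/mL were above all others, by 0.63 ± 0.08 against medium (SE, limma adjusted p = 3.3e-05). Of 9 measured non-ATPase subunits 6 rose (66.7%, beside 14.1% of all genes). The others that rose were PSMD2, the other large base scaffold (0.49), PSMD6 (0.42) and PSMD11 (0.38), both lid subunits, and PSMD14, the deubiquitinase that cuts off the ubiquitin chain (0.32). With the mean of all probe sets, PSMD6 (0.13, limma adjusted p = 0.49) and PSMD11 (-0.054, limma adjusted p = 0.68) did not pass. PSMD3, a lid subunit, PSMD8, likewise of the lid, and PSMD4, a ubiquitin receptor, had log2 fold changes of 0.17, 0.20 and -0.08 and did not pass.

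The ATPases, which form the ring that unfolds substrates, rose in 4 of 5 measured cases. PSMC1 had 11.29, 11.27 and 11.29 at 25 µg/mL, 10.63, 10.66 and 10.47 with 2.5 µg/mL AgPURE, 10.90, 10.72 and 10.70 with AgNO3 and 10.72, 10.68 and 10.65 in medium. PSMC4 had 10.41, 10.58 and 10.58 at 25 µg/mL, 9.94, 9.93 and 9.80 with 2.5 µg/mL AgPURE, 10.04, 9.94 and 9.99 with AgNO3 and 10.01, 9.99 and 9.85 in medium. In both genes the 25 µg/mL arrays were clear of the rest, and their log2 fold changes against medium were 0.60 ± 0.08 and 0.57 ± 0.08 (SE, limma adjusted p = 6.0e-05 and 9.3e-05). PSMC2 and PSMC6 rose by 0.24 each, the smallest changes that passed among members, and both calls were lost with median centring or without any of several arrays. PSMC2 was at 0.0040 with the mean of its 3 probe sets and did not pass. PSMC2 lost its call without 25 µg/mL replicate 2 or 3 or medium replicate 1 or 3 (adjusted p of 0.072 to 0.10), and PSMC6 without any 25 µg/mL replicate or medium replicate 2 or 3 (0.064 to 0.11). PSMC3 had a log2 fold change of 0.21 with an adjusted p of 0.14, although all of its 25 µg/mL arrays were above all medium arrays.

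In the core, the beta subunit genes PSMB7 and PSMB2 and the alpha subunit gene PSMA7 rose at 25 µg/mL, by 0.46 ± 0.10, 0.42 ± 0.07 and 0.34 ± 0.08 (SE, limma adjusted p = 0.0020, 0.00039 and 0.0029). PSMB7 encodes the subunit with trypsin-like activity, PSMB2 is a structural beta subunit and PSMA7 belongs to the gate-forming alpha ring. PSMB2 did not pass with the mean of all probe sets (0.19, limma adjusted p = 0.053), whereas PSMA3 (0.30), PSMA5 (0.30) and PSMB4 (0.39) did. The means of PSMA3, PSMA5 and PSMB4 were raised by dimmer probe sets, at 0.50, 0.68 and 1.23, with mean log2 values of 4.2, 4.7 and 7.9. Their brightest probe sets gave 0.14, -0.07 and 0.02. The other 5 measured members of the beta ring did not pass, among them PSMB5 (0.09), which carries the chymotrypsin-like site, PSMB6 (-0.14), which carries the caspase-like site, and the structural PSMB1 (-0.05), PSMB3 (-0.17) and PSMB4 (0.02). Of the alpha ring, PSMA1, PSMA2, PSMA3, PSMA4 and PSMA5 had log2 fold changes of 0.09, 0.08, 0.14, 0.08 and -0.07 and did not pass. The 95% intervals of the 14 core genes ran from -0.37 to 0.67. PSMA8, an alpha subunit known from testis, had 4.22, 4.08 and 3.98 at 25 µg/mL, 4.30, 4.36 and 3.97 with 2.5 µg/mL AgPURE, 4.35, 4.03 and 4.05 with AgNO3 and 4.09, 4.17 and 4.35 in medium. Its groups overlapped throughout, and its mean was in percentile 21.6 of all genes, and whether it reads more than background was not tested.

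Among the uncalled members, those nearest the threshold were PSMG3 and PSMB3. PSMG3, an assembly chaperone of the core, had 8.42, 8.56 and 8.74 at 25 µg/mL, 8.40, 8.31 and 8.28 with 2.5 µg/mL AgPURE, 8.31, 8.11 and 8.40 with AgNO3 and 8.20, 8.48 and 8.30 in medium, with a limma adjusted p of 0.0975 against medium. PSMB3 had 12.08, 12.14 and 12.21 at 25 µg/mL, 12.24, 12.31 and 12.12 with 2.5 µg/mL AgPURE, 12.39, 12.30 and 12.34 with AgNO3 and 12.29, 12.32 and 12.34 in medium, with an adjusted p of 0.11. The 25 µg/mL values of PSMG3 overlapped those of medium, whereas all of those of PSMB3 lay below medium. Over all members, the 25 µg/mL arrays lay entirely above medium in 21 and entirely below in 10, beside 19.8% and 25.9% of all genes.

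The immunoproteasome genes fell at 25 µg/mL. PSMB9, the inducible counterpart of PSMB6, had 4.15, 4.26 and 4.23 at 25 µg/mL, 5.29, 5.61 and 5.54 with 2.5 µg/mL AgPURE, 5.20, 5.08 and 5.49 with AgNO3 and 5.54, 5.55 and 5.02 in medium. PSMB8, the inducible counterpart of PSMB5, had 4.60, 4.83 and 4.56 at 25 µg/mL, 5.85, 5.60 and 5.68 with 2.5 µg/mL AgPURE, 5.39, 5.58 and 5.81 with AgNO3 and 5.81, 5.64 and 5.61 in medium. Both genes were dim, since their 25 µg/mL means of 4.22 and 4.67 lay below the array medians of 4.76 to 4.78, so their folds depend on the background correction. Their log2 fold changes were -1.15 ± 0.14 and -1.02 ± 0.12 (SE, limma adjusted p = 2.2e-05 and 9.4e-06), 2.22-fold and 2.03-fold lower.

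PSME1 is a subunit of the interferon-inducible activator PA28, which opens the core without ATP. It had 9.06, 9.11 and 9.21 at 25 µg/mL, 10.07, 10.17 and 9.96 with 2.5 µg/mL AgPURE, 10.03, 10.18 and 10.02 with AgNO3 and 9.99, 10.09 and 10.16 in medium. It was well measured, in percentile 90.5 of all genes, and its fall of -0.96 ± 0.09 (SE, 1.94-fold lower, limma adjusted p = 1.3e-06) therefore did not rest on dim values. PSMB10, the inducible counterpart of PSMB7, had 7.62, 7.96 and 7.83 at 25 µg/mL, 8.11, 8.12 and 8.0 with 2.5 µg/mL AgPURE, 8.14, 8.05 and 8.19 with AgNO3 and 8.13, 8.33 and 8.09 in medium. All arrays at 25 µg/mL were below all others, by less than for PSME1, and it fell by 0.38 on the log2 scale (limma adjusted p = 0.0076).

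**Figure D2:**
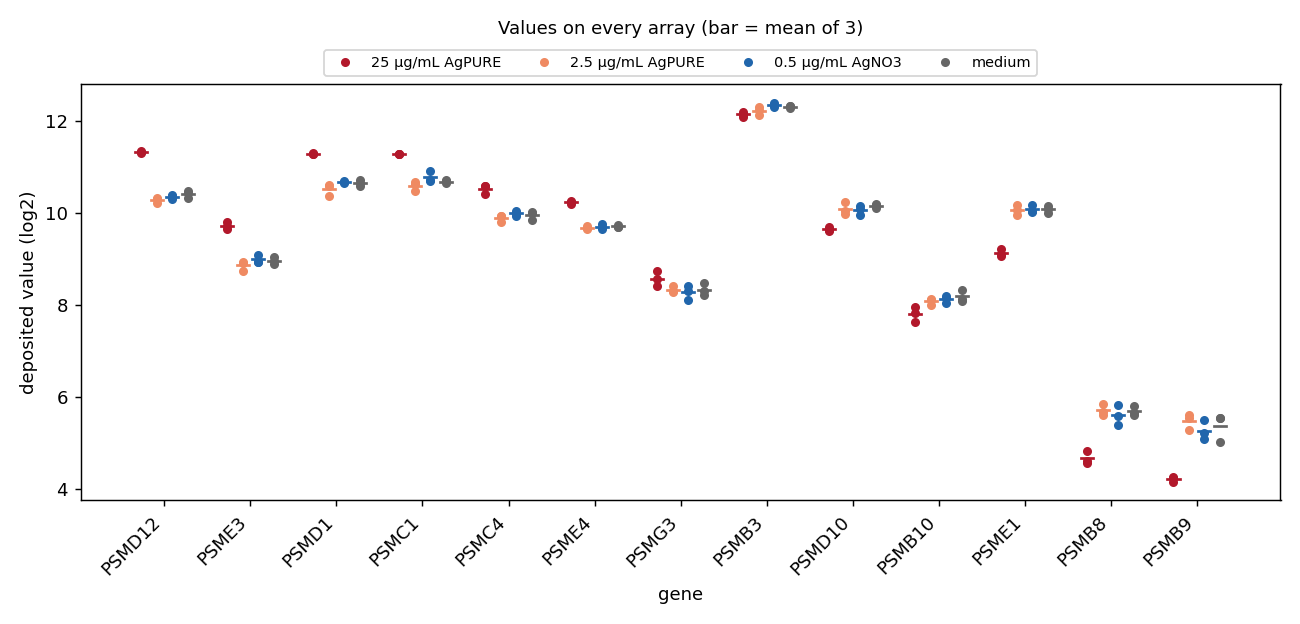
Deposited log2 values (y axis) on every array for 13 proteasome genes (x axis) in the 4 groups; points are arrays and bars are means of 3. The 25 µg/mL points stand above the others for PSMD12, PSME3, PSMD1, PSMC1, PSMC4 and PSME4 and below them for PSMD10, PSMB10, PSME1, PSMB8 and PSMB9.

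Activators outside the interferon-inducible pair moved the other way. PSME3, the nuclear activator PA28 gamma, had 9.71, 9.80 and 9.66 at 25 µg/mL, 8.90, 8.94 and 8.75 with 2.5 µg/mL AgPURE, 9.08, 8.94 and 8.94 with AgNO3 and 8.95, 9.04 and 8.88 in medium. PSME4, the activator PA200, had 10.26, 10.20 and 10.24 at 25 µg/mL, 9.64, 9.71 and 9.68 with 2.5 µg/mL AgPURE, 9.69, 9.65 and 9.76 with AgNO3 and 9.70, 9.73 and 9.69 in medium. In both, the 25 µg/mL arrays were above all others, with log2 fold changes against medium of 0.76 ± 0.09 and 0.53 ± 0.07 (SE, limma adjusted p = 8.9e-06 and 5.0e-05). PSMF1, which encodes the proteasome-binding regulator PI31, rose by 0.39. All of its 4 probe sets gave a positive value, between 0.30 and 0.41.

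Of 7 assembly factors 1 rose and 2 fell (14.3% and 28.6%, beside 14.1% and 19.3% of all genes). These counts do not set the class apart from all genes. PSMG1, of the chaperone pair that builds the alpha ring, rose by 0.35, whereas its partner PSMG2 had -0.08 and did not pass. PSMD10, the ATPase chaperone also called gankyrin, had 9.61, 9.63 and 9.70 at 25 µg/mL, 10.03, 10.24 and 9.97 with 2.5 µg/mL AgPURE, 9.94, 10.15 and 10.09 with AgNO3 and 10.10, 10.17 and 10.20 in medium. All arrays at 25 µg/mL were below all others, and the fall was -0.51 ± 0.09 (SE, limma adjusted p = 0.00041). PSMG4, the partner of PSMG3, fell by 0.43, a call that was lost when the mean of its 5 probe sets was used (-0.05). PSMD5 and PSMD9, ATPase chaperones like PSMD10, had -0.07 and 0.11 and did not pass.

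Differences between gene classes within an array do not change when a whole array is scaled. The mean of the cap genes minus the mean of the core genes was -0.18, -0.12 and -0.17 on the 25 µg/mL arrays, -0.45, -0.45 and -0.42 with 2.5 µg/mL AgPURE, -0.41, -0.47 and -0.47 with AgNO3 and -0.42, -0.42 and -0.51 in medium. Relative to the core, the cap was thus 0.30 higher at 25 µg/mL than in medium, with no overlap between these groups. With the mean of all probe sets the difference was 0.51, 0.57 and 0.52 at 25 µg/mL, against 0.39, 0.42 and 0.35 in medium, so the cap was 0.15 higher relative to the core, still without overlap. The mean of the immunoproteasome genes minus that of the core was -4.71, -4.56 and -4.68 at 25 µg/mL, -3.63, -3.66 and -3.53 with 2.5 µg/mL AgPURE, -3.84, -3.81 and -3.64 with AgNO3 and -3.62, -3.61 and -3.83 in medium. Relative to the core, the immunoproteasome changed by -0.96 at 25 µg/mL against medium. With the mean of all probe sets the change was -1.03, where only the core values differed, since the immunoproteasome genes had no other probe sets. PSMB8 and PSMB9, which enter this mean, lay below the median gene. With all such dim genes left out, PSME1 and PSMB10 remained, with a median log2 fold change of -0.67 against medium. These values describe how the changes differ and say nothing of which class is more abundant, because probe sets of different genes are not on one scale.

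**Figure D3:**
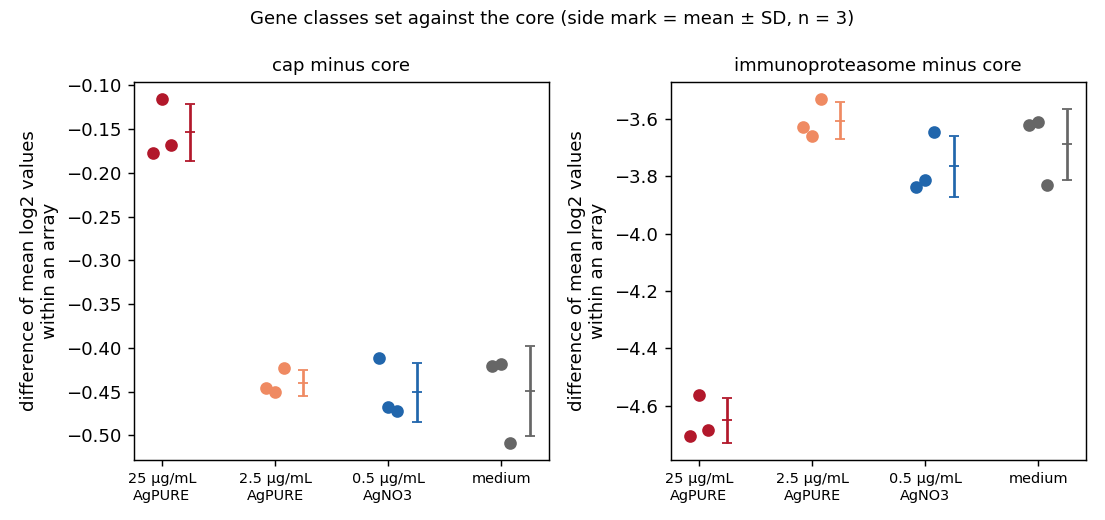
Mean log2 value of the cap genes (left) and of the immunoproteasome genes (right) minus that of the core genes within each array (y axis) in the 4 groups (x axis); points are arrays and side marks are means ± SD (n = 3). At 25 µg/mL the cap difference averaged -0.15, against -0.45 in medium, and the immunoproteasome difference averaged -4.65, against -3.69 in medium.

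The same contrast can be written subunit by subunit, from the genes already described and thus without separate support. PSMB8 minus PSMB5 changed by -1.12 at 25 µg/mL against medium, PSMB9 minus PSMB6 by -1.01 and PSMB10 minus PSMB7 by -0.84. For each of these 3 pairs, all arrays at 25 µg/mL lay below all medium arrays. A two-sided exact permutation test gave p = 0.10 for each, which is the lowest value 3 against 3 arrays allow. For PSMB10 and PSMB7 both members passed the test over all genes in opposite directions. For PSMB8 and PSMB9 the constitutive partner did not pass.

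**Figure D4:**
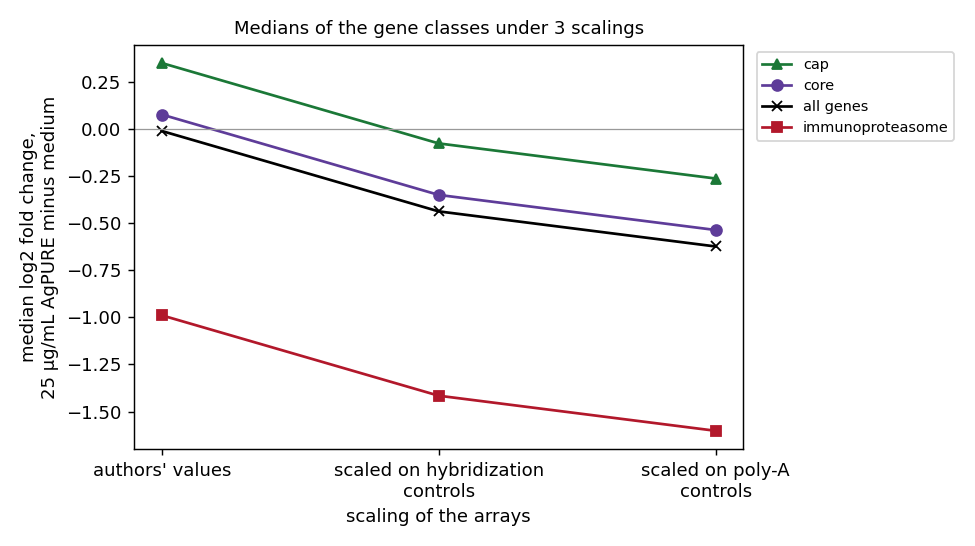
Median log2 fold change (y axis), 25 µg/mL AgPURE minus medium, of the cap, core, immunoproteasome and all genes with the deposited values and with arrays scaled on hybridization or poly-A control probe sets (x axis). The cap median is 0.35, -0.08 and -0.26 and the immunoproteasome median -0.99, -1.42 and -1.60 under these 3 scalings. Each scaling shifts all genes by 1 amount, so the order of the classes is fixed by construction.

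The control probe sets were brighter at 25 µg/mL than in medium, by 0.61 for poly-A and 0.43 for hybridization controls, and scaling on them put the median of all genes at -0.62 and -0.44. Under poly-A scaling the core median was -0.54, and 3 of the 17 members that rose, PSMD12 (0.30), PSME3 (0.15) and PSMD1 (0.02), stayed above 0. Under hybridization scaling the core median was -0.35, and 8 of the 17 stayed above 0, with PSMD12 at 0.49. Whether total mRNA per cell changed was not tested. In cells measured in bulk, fewer cells of a type and less RNA per cell cannot be told apart.

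At 2.5 µg/mL AgPURE and 0.5 µg/mL AgNO3 0 of 42 members passed by limma, beside 0.0% of all genes, of which 900 and 1233 had an unadjusted p under 0.05. At 2.5 µg/mL 0 members had an unadjusted p under 0.05. The mean of the core genes was 10.96, 11.03 and 10.83 on the 2.5 µg/mL arrays, against 10.99, 11.01 and 11.05 in medium. That of the cap genes was 10.51, 10.58 and 10.40, against 10.57, 10.60 and 10.54, so replicate 3 was the lowest in both. The median log2 fold change of members at 2.5 µg/mL was -0.07 beside 0.0017 for all genes. Below medium lay 35 of 42 members, beside 9771 of 19775 genes. The 95% intervals of all members lay between -0.36 and 0.42. The 2.5 µg/mL arrays lay entirely above medium in 0 members and entirely below in 5 (PSMA1, PSMB2, PSMB5, PSMD11 and PSMD12), beside 5.45% and 4.51% of all genes. With AgNO3 the median was -0.005 beside 0.0037 for all genes, and the intervals lay between -0.42 and 0.32. With AgNO3 20 members lay above and 22 below medium, beside 10128 and 9647 of 19775 genes. The AgNO3 arrays lay entirely above medium in 1 member (PSMB2) and entirely below in 3 (PSMA4, PSMB4 and PSMG4), beside 5.32% and 5.13% of all genes. PSMB2 alone had an unadjusted p under 0.05 with AgNO3, at a log2 fold change of 0.16 ± 0.07 (SE, limma adjusted p = 0.80). The fold seen for PSMD12, PSMB8, PSMB9 or PSME1 at 25 µg/mL lay outside these intervals at the lower dose and with AgNO3. The doses of particles and ions differ, so these values do not compare the 2 forms of silver at a matched dose.

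The 25 µg/mL arrays also enter the comparison with 2.5 µg/mL and with AgNO3, and the values below are therefore not independent of those above. Against 2.5 µg/mL 18 members were higher and 6 lower, beside 13.7% and 20.3% of all genes (34.0% either way), and against AgNO3 18 and 6, beside 13.7% and 18.6% (32.3% either way). The 25 µg/mL arrays lay entirely above those at 2.5 µg/mL in 24 members and entirely below in 7, beside 19.6% and 25.7% of all genes. Against AgNO3 these numbers were 21 and 9, beside 18.8% and 24.3%. PSMC3 passed as higher against 2.5 µg/mL (0.32, limma adjusted p = 0.027) and PSMG3 against AgNO3 (0.30, limma adjusted p = 0.045). PSMD12 had log2 fold changes of 1.04 against 2.5 µg/mL and 0.98 against AgNO3, and PSME3 had 0.86 and 0.73. PSMB9 had -1.26 and -1.04, PSMB8 -1.04 and -0.93, PSME1 -0.94 and -0.95, and PSMB10 -0.27 and -0.32. The cap medians were 0.39 and 0.37, the core medians 0.16 and 0.07, and the immunoproteasome medians -0.99 and -0.94.

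Among genes that work with the proteasome, more rose than fell. Of 11 genes for bound factors and assembly partners 6 rose and 1 fell at 25 µg/mL, with a median of 0.24. These are 54.5% and 9.09%, beside 14.1% and 19.3% of all genes. UBE3C, a ubiquitin ligase bound to the cap, rose by 0.74, TXNL1, a thioredoxin-like protein of the cap, by 0.69, ADRM1, a ubiquitin receptor, by 0.65 and POMP, which guides core assembly, by 0.46. Of 13 shuttle and VCP genes 7 rose and 2 fell, or 53.8% and 15.4%, beside the same shares of all genes. ZFAND2A, which binds the proteasome under arsenite stress, had 11.94, 11.67 and 11.68 at 25 µg/mL, against 9.41, 9.37 and 9.08 in medium, a log2 fold change of 2.48 ± 0.14 (SE, limma adjusted p = 2.0e-08). SQSTM1, an autophagy receptor for ubiquitinated proteins, rose by 1.05, FAF2, a VCP cofactor at the endoplasmic reticulum, by 1.04 and ZFAND5, a proteasome activator, by 0.61. Of 3 measured ubiquitin supply genes UBA6, a ubiquitin-activating enzyme, rose by 0.54, and UBA1 and UBB had 0.24 and 0.01 and did not pass. Under poly-A scaling none of UBE3C, TXNL1, ADRM1, POMP, SQSTM1, FAF2, ZFAND5 and UBA6 passed as higher, and POMP, UBA6 and ZFAND5 turned below 0. With the mean of all probe sets of a gene, UBE3C, UBA6 and ZFAND5 did not pass (0.09, 0.14 and 0.18), and SQSTM1 and TXNL1 passed at 0.62 and 0.38.

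Of 4 measured genes of the NRF1 axis 1 rose and 1 fell, or 25.0% each, beside 14.1% and 19.3% of all genes. NFE2L1 had a log2 fold change of -0.28 with an adjusted p of 0.11, and NGLY1, the glycanase that processes NRF1, had 0.11 and did not pass. NFE2L2, which encodes NRF2, rose by 0.27, a call lost in each of the 6 fits that left out 1 array of these groups, and SEL1L, a subunit of the ER degradation machinery that turns NRF1 over, fell by 0.61. Of 8 measured genes of antigen processing and interferon signalling 0 rose and 5 fell, with a median of -0.53. The shares were 0.0% and 62.5%, beside 14.1% and 19.3% of all genes. TAPBP, which bridges the peptide transporter and class I molecules, fell by 0.87, the ER aminopeptidase genes ERAP1 and ERAP2 by 0.86 and 0.72, and B2M, the class I light chain, by 0.66. TAPBP, ERAP1, ERAP2 and B2M passed with the mean of all probe sets too, at -0.37, -0.41, -0.76 and -0.46. TAP1, a subunit of the peptide transporter, was picked after its values were seen and had a log2 fold change of 0.25 that did not pass (adjusted p = 0.11). IRF1, an interferon-responsive transcription factor picked in the same way, had 0.01. At 2.5 µg/mL and with AgNO3 0 genes of these 5 related lists passed, with 3 and 1 genes at an unadjusted p under 0.05.

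In a fit over all probe sets, those of one gene did not always give the same answer. Of the called members 13 had several probe sets, which were of one sign in 8, and in PSMB2 and PSMD11 a dimmer probe set passed in the opposite direction. For PSMB2 the probe set used gave 0.42, another 0.60 and the dimmest -0.44. For PSMD11 the probe set used gave 0.38 and the other -0.49, so the direction of PSMD11 is uncertain. For PSMC2, PSMD6 and PSMG4 another probe set had the other sign without passing. PSMB4, which did not pass, had a dimmer probe set at 1.23. The probe sets used for PSMA1, PSMA7 and PSME3 are of the kind named as open to cross-hybridization.

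The epithelial identity of the cells was checked on 12 enterocyte-type markers, of which 9 lay above the median gene. SI, KRT20 and ALPI lay below it, in percentiles 4.6, 33.5 and 46.6 of all genes. Their summed level ran from 15.27 to 15.35 (log2) at 25 µg/mL, 15.24 to 15.41 at 2.5 µg/mL, 15.25 to 15.33 with AgNO3 and 15.30 to 15.39 in medium. At 25 µg/mL 1 of the 12 rose, the bright KRT18 (0.32), and 6 fell: FABP1 (-1.59), ALPI (-1.38), APOA1 (-0.71), VIL1 (-0.50), CDX2 (-0.44) and CDH1 (-0.43). The sum follows the brightest markers and so does not show the falls. Of 11 markers of other cell types 10 lay below the median gene, and the fibroblast marker COL1A1 was in percentile 85.0. The summed leukocyte level was 6.16 to 6.47 at 25 µg/mL, 6.61 to 6.78 at 2.5 µg/mL, 6.45 to 6.68 with AgNO3 and 6.57 to 6.80 in medium. Of the 3 leukocyte markers CD14 fell (-0.71), and PTPRC and CD3E had -0.03 each and did not pass. The summed fibroblast level was 9.17 to 9.24 at 25 µg/mL, 9.40 to 9.67 at 2.5 µg/mL, 9.32 to 9.61 with AgNO3 and 9.28 to 9.62 in medium, with LUM lower (-0.90) and COL1A2 higher (0.34). The summed endothelial level was 6.55 to 6.75 at 25 µg/mL, 6.31 to 6.53 at 2.5 µg/mL, 6.42 to 6.54 with AgNO3 and 6.40 to 6.54 in medium, with CDH5 higher (0.96). The part of these markers in the proteasome changes was not tested.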

How the data were processed

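RNA was labelled by the Affymetrix 3′ IVT protocol and hybridized to 12 arrays, 3 per group. The deposited values are on the log2 scale and were made with RMA and Partek, per the submitters' processing notes. For both tools the sources used here give no version or setting. The array medians ran from 4.72 to 4.79 and no gene was centred. All columns matched a sample, and no arrays held identical values. Of 54675 probe sets, 41091 carried 1 gene symbol, 1801 several and 11721 were not listed, and 62 were controls. Symbols were updated by gene ID for 41037. Each of 19775 genes was represented by its brightest probe set on average. limma 3.58.1 (R 4.3.3) fitted 1 model to the 4 groups, with 5 contrasts and Benjamini-Hochberg adjustment over all genes at 0.05, and was tested on simulated data. Values in every array are given for the 10 largest called changes, the immunoproteasome genes and the 2 uncalled genes nearest the threshold. PSMA8 and ZFAND2A were added after their values were seen. The number of arrays limits the precision. The members, lists and tests were chosen with earlier results of these data known. Alternatives were other scalings, probe-set means, a filter on dim genes, an intensity trend, the 2 groups alone and leaving out each array.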

Additional observations from a re-analysis of the deposited data

Results flagged for a closer look

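The control probe sets, which no comparison above uses as a measurement, were brighter on the 25 µg/mL arrays than on the medium arrays. The mean of the 24 poly-A controls was 0.61 higher (log2), with 6.21, 5.56 and 6.31 at 25 µg/mL, against 5.31, 5.54 and 5.39 in medium. The mean of the 18 hybridization controls was 0.43 higher, with 10.9 to 11.1 at 25 µg/mL, against 10.4 to 10.7 in medium. Both shifts bear on the 17 proteasome genes that rose, of which 8 stayed above 0 under hybridization scaling and 3 under poly-A scaling. The source of the shifts was not tested.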

How the results depend on the processing

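The counts of proteasome genes past the threshold at 25 µg/mL against medium ran from 21 to 24 over all settings except control scaling, beside 23 in the reported fit, and from 21 to 22 without 1 array. The count hides which genes passed: with the mean of all probe sets 13 of the 17 rises kept their call, PSMB2, PSMC2, PSMD6 and PSMD11 lost it, and PSMA3, PSMA5 and PSMB4 gained one. In that setting, added for this value after seeing the data, the cap rise relative to the core was 0.15, beside 0.30 with the brightest probe sets. With array medians aligned 15 were higher and 6 lower (35.7% and 14.3%, beside 12.5% and 20.4% of all genes). The scaling on control probe sets turned signs, and the cause was not tested. Under hybridization scaling the member median was -0.27 against medium and -0.13 against 2.5 µg/mL AgPURE, where 15 members passed, and the median at 2.5 µg/mL against medium was -0.15. Under poly-A scaling these medians were -0.45, -0.53 and 0.067, and that with AgNO3 was 0.17. At 25 µg/mL against medium, hybridization scaling gave -0.35 for PSMA2 and PSMA4, -0.087 for PSMA7, -0.0022 for PSMB2, -0.405 for PSMB4, -0.33 for PSMB5, -0.19 for PSMC2, -0.18 for PSMC6, -0.044 for PSMD11, -0.11 for PSMD14, -0.0093 for PSMD6, -0.034 for PSMF1, -0.072 for PSMG1, -0.16 for NFE2L2 and -0.42 for UBB. Poly-A scaling gave -0.52 for PSMA1 and PSMB5, -0.54 for PSMA2 and PSMA4, -0.27 for PSMA7, -0.19 for PSMB2, -0.59 for PSMB4, -0.16 for PSMB7 and POMP, -0.014 for PSMC1 and -0.37 for PSMC2 and PSMC6. It gave -0.039 for PSMC4, -0.23 for PSMD11, -0.30 for PSMD14, -0.12 for PSMD2, -0.20 for PSMD6, -0.51 for PSMD9, -0.086 for PSME4, -0.22 for PSMF1 and -0.26 for PSMG1. It gave -0.34 for NFE2L2, -0.50 for NGLY1, -0.075 for UBA6, -0.60 for UBB and -0.0071 for ZFAND5. With the mean of all probe sets PSMA5 was at 0.30 and PSMD11 at -0.054. No paired analysis was possible because the columns carry no replicate numbers. Dim genes such as PSMB8 and PSMB9 are limited by their signal over background.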
